A study of Mus musculus with 16 samples.

Results

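The genes described here are 37 genes of the lysosome and of autophagy in mouse macrophages, read in peak lists of chromatin immunoprecipitation followed by sequencing (ChIP-seq). Each gene was given a window that ran from 5 kb before its GRCm38 bounds to 5 kb after them, and every deposited peak that overlapped a window by at least 1 bp was collected. The 37 genes are a named list, taken from 21887 protein-coding genes that served as the background. They comprise 12 lysosomal enzymes, 7 other lysosomal proteins, 4 subunits of the proton pump, 2 transcription factors and 12 autophagy genes. Of the 37 genes, 33 had a peak of H3K27ac, the acetylated histone mark of active promoters and enhancers, against 37.3% of all protein-coding genes. H3K27me3, the repressive mark of the Polycomb system, was called at 7 of the 37 against 35.9%.

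Lysosomes are acidic compartments in which hydrolases break down what a cell engulfs or recycles. A proton pump in the lysosomal membrane sets the low pH, membrane proteins shield the compartment and carry cholesterol and ions across it, and the enzymes digest protein, glycans and lipids. Autophagy delivers the cell's own material to the lysosome: a kinase complex starts the process, 2 linked conjugation pathways attach a ubiquitin-like protein to the growing membrane, and receptors load the cargo. Macrophages depend on both systems to digest particles and microbes. The transcription factors TFEB and TFE3 bind an E-box-like element, whose core is CACGTG, in the promoters of many lysosomal genes.

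All cells were primary macrophages of C57BL/6 mice, grown from bone marrow of adult animals for 5 days with conditioned medium containing M-CSF. Wild-type cells without treatment were immunoprecipitated for H3K27ac, H3K27me3, EZH2 or p53, and wild-type cells primed with LPS and then given nigericin were immunoprecipitated for EZH2. SIRT1 was immunoprecipitated from untreated cells of 2 pairs of genotypes, Ezh2 wild type with Ezh2 knockout, and p53 wild type with p53 knockout; SIRT1 values below follow that order where no genotype is named. EZH2 is the enzyme that writes H3K27me3, p53 is a stress-responsive transcription factor, SIRT1 is a protein deacetylase, and nigericin is a potassium ionophore used on primed macrophages to activate the NLRP3 inflammasome. How the Ezh2 and p53 genes were deleted, and whether cells of several animals were pooled, was not stated in the labels. Each of the 9 peak lists comes from 1 library, so no difference between groups has a replicate check and no test between groups was possible. Values are therefore given side by side, with intervals that cover counting error only.

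Promoter sequences were listed for 28 of the 37 genes in a RefSeq table on GRCm38.p6, which gives 250 bases before and 50 after each start. The full palindromic TFEB element, known as CLEAR, occurred in 0 of these 28 genes and in 0.419% of 21263 promoters of protein-coding genes. The shorter TCACGTGA, which is part of it and contains CACGTG, occurred in 6 of the 28 genes and in 1.23% of all promoters, and CACGTG alone in 11 of the 28 and in 7.84%. By promoter, the unit of the background, TCACGTGA occurred in 6 and CACGTG in 11 of the 35 listed promoters of these genes. All 3 motifs read the same on both strands. The 8 places with TCACGTGA are printed because this is the longest part of the TFEB element searched that these promoters held; capitals mark TCACGTGA within 30 bases, read 5′ to 3′ on the strand of the gene. On GRCm38 they lie at chr2:164833749-164833778 and chr2:164833766-164833795 (Ctsa, plus strand, partly overlapping windows), chr7:142387908-142387937 (Ctsd, minus), chrX:134601215-134601244 and chrX:134601182-134601211 (Gla, minus), chr8:3500462-3500491 (Mcoln1, plus), chr8:105566050-105566079 (Atp6v0d1, minus) and chr16:45158746-45158775 (Atg3, plus).
Ctsa, first: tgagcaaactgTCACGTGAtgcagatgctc
Ctsa, second: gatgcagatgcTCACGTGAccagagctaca
Ctsd: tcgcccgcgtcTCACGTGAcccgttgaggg
Gla, first: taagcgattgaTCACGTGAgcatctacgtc
Gla, second: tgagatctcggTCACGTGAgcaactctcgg
Mcoln1: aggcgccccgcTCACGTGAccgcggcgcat
Atp6v0d1: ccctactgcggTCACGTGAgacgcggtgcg
Atg3: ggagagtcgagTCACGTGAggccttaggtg

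The 250 bases before the start are printed for 3 genes that differ in their marks: Ctsd (chr7:142387828-142388077, minus strand), which had the highest H3K27ac fold of the 37, Lamp1 (chr8:13158911-13159160, plus strand), which held the most CACGTG, and Mcoln1 (chr8:3500269-3500518, plus strand), which had no H3K27ac peak. Capitals mark CACGTG. Lamp1 held 4 copies, a number reached by 5 of the 21263 promoters, while Ctsd and Mcoln1 held 2 each; at least 2 were held by 0.748% of promoters. A match is a description of the letters and does not show that a factor is bound.
Ctsd: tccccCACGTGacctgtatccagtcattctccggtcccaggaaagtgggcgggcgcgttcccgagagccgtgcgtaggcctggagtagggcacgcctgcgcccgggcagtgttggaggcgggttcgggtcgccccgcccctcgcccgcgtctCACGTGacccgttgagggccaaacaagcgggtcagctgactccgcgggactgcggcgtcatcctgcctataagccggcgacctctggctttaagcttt
Lamp1: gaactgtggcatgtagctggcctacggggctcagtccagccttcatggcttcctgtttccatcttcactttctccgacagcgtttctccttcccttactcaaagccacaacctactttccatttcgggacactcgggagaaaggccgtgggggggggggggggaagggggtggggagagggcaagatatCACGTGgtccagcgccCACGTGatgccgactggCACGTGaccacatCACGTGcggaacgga
Mcoln1: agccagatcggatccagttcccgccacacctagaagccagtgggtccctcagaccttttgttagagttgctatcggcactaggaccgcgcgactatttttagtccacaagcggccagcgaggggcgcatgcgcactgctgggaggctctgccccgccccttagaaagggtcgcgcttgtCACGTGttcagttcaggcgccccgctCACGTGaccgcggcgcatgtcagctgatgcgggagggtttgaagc

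The lists differed in length and stringency. They held 51604 peaks for H3K27ac and 88037 for H3K27me3, 9771 and 5128 for EZH2 without treatment and after LPS and nigericin, and 5068 for p53. The SIRT1 lists of the Ezh2 pair held 74767 peaks (wild type) and 18170 (knockout), and those of the p53 pair 56323 and 59807. Every peak of both histone lists had a false discovery rate (q) of at most 0.05, whereas 17.9% of the untreated EZH2 peaks, 14.8% of the nigericin EZH2 peaks, 1.16% of the p53 peaks and 0.32% to 2.88% of the SIRT1 peaks did. Marker genes were read in the H3K27ac list: 9 of 9 macrophage genes had a peak, with a median highest fold of 4.89, as did 1 of 6 neutrophil genes (Csf3r), 3 of 6 lymphocyte genes (Cd79a and Ms4a1 among them), 1 of 5 stromal genes (Pdgfrb) and 1 of 5 erythroid genes (Klf1). Cd79a and Ms4a1 are genes of B cells. The T-cell genes Cd3e and Cd3g, the neutrophil genes Ly6g, Elane and Mpo and the stromal genes Col1a1 and Col1a2 had none. The part that cells of other types have in the results was not tested.

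**Figure D1:**
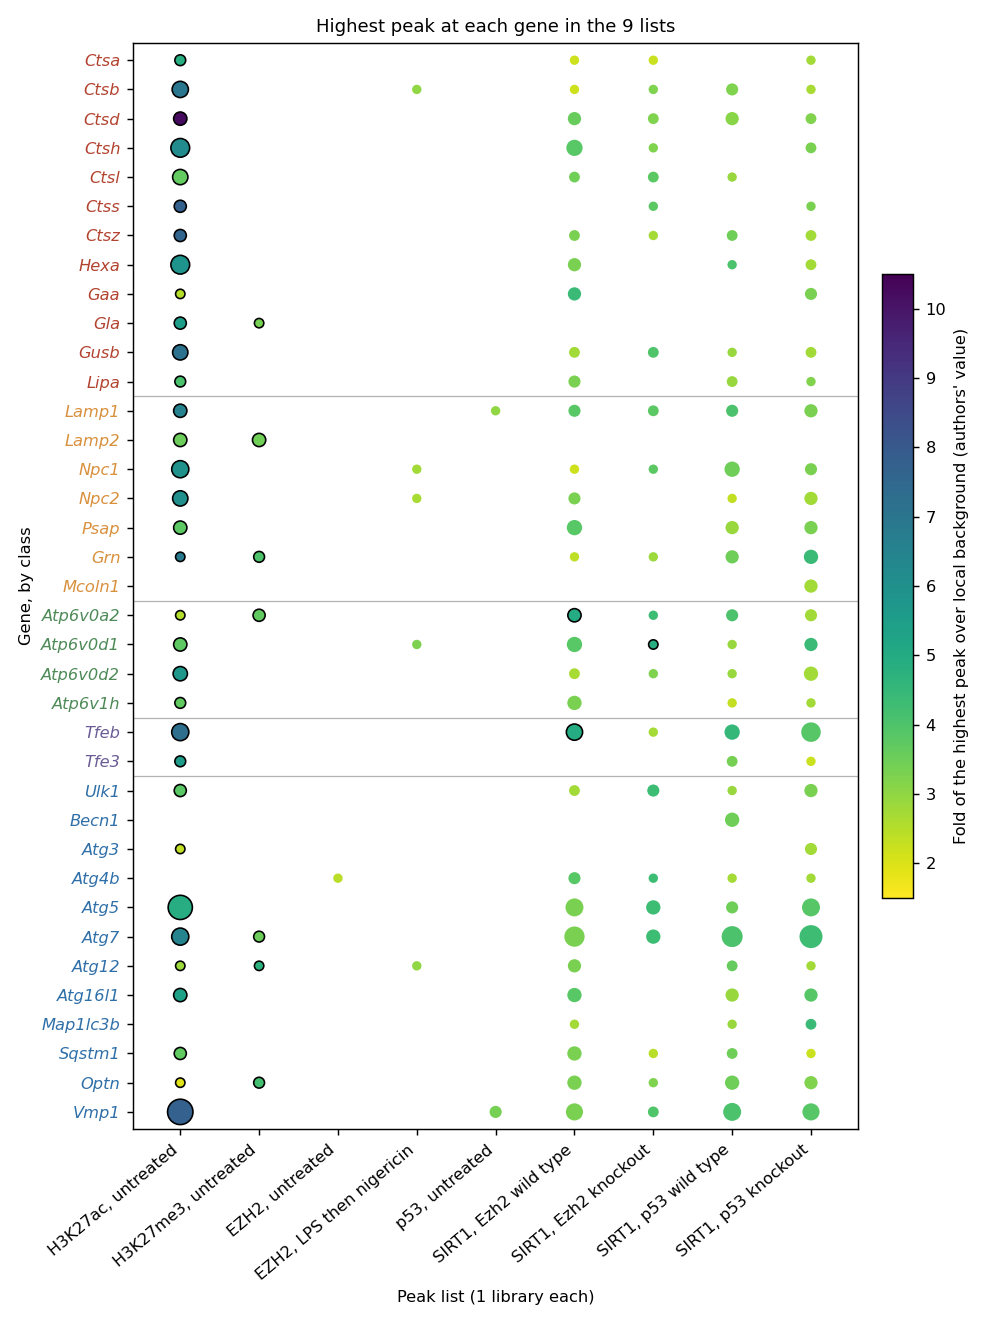
Highest peak at each of the 37 genes (rows, grouped by class with coloured names) in each of the 9 peak lists (columns, 1 library each). Colour gives the authors' fold over local background, dot size grows with the number of peaks in the window, and a black outline marks a gene with at least 1 peak of q at most 0.05; the H3K27ac column is filled at 33 genes, the EZH2 and p53 columns at 1 to 5.

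The share of these genes with a peak was above the background for H3K27ac and below it for H3K27me3, and close to it for p53. For EZH2 in untreated cells it was 1 of 37 against 16.7% of protein-coding genes, for EZH2 after LPS and nigericin 5 of 37 against 10.6%, and for p53 2 of 37 against 6.45%. SIRT1 was called in the Ezh2 pair at 30 genes (wild type) against 69.1% and at 22 (knockout) against 38.3%, and in the p53 pair at 29 against 64.1% and at 33 against 65%. These genes are longer than most, with a median of 24973 bp against 17169 bp, so counts were repeated within 1 kb of the gene ends, where length plays no part. There H3K27ac was called at 32 genes (26.3% of all), H3K27me3 at 1 (25.4%), EZH2 at 0 in both lists (7.54% untreated and 4.32% after nigericin), and p53 at 1 (0.704%). SIRT1 was called near the gene ends at 15 (24.6%), 7 (11.1%), 12 (24.3%) and 12 (24.7%) of the genes in the same order of lists. Of the 37 windows, 27 also held another protein-coding gene, so a peak in a window is not always a peak of the named gene.

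**Figure D2:**
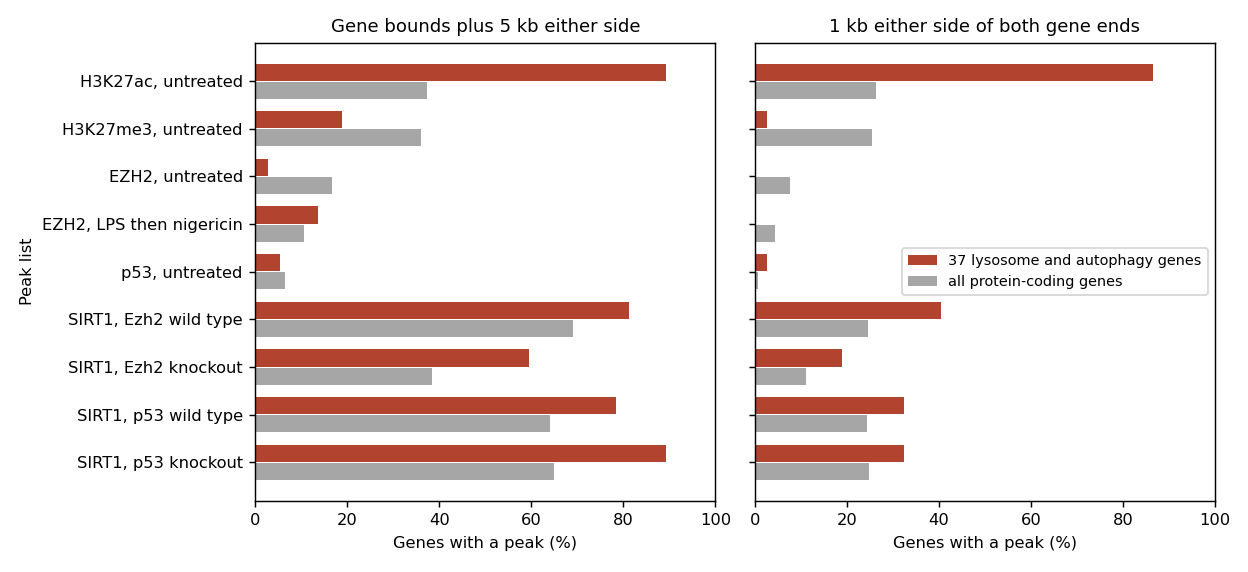
Percentage of the 37 lysosome and autophagy genes (red) and of the 21887 protein-coding genes (grey) with a peak, per list, for the gene bounds plus 5 kb (left) and for 1 kb around both gene ends (right). H3K27ac stands at 89.2% against 37.3% on the left and 86.5% against 26.3% on the right, and H3K27me3 at 18.9% against 35.9% and 2.7% against 25.4%.

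All 12 lysosomal enzyme genes carried H3K27ac, with a median highest fold of 6.02. The fold is the authors' value, the fragments at the peak's summit over those expected from local background. Ctsd, an aspartic protease, had the highest of the 37, 10.24-fold, from 112 fragments (95% Poisson interval 92.2 to 135), which placed it 27th among all protein-coding genes. The summit of that peak lay 9599 bp beyond the gene bounds, so the rank rests on a summit outside the window. The highest peak with its summit inside reached 8.56-fold. Ctss, the cysteine protease that trims the invariant chain in antigen-presenting cells, reached 7.78-fold with a summit 6219 bp outside its bounds and 5.6-fold inside the window.

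Ctsz, a carboxypeptidase, reached 7.61-fold from 115 fragments (94.9 to 138). Gusb, the beta-glucuronidase, reached 7.15-fold and Ctsb, a cysteine protease, 6.96-fold from 102 fragments (83.2 to 124). The middle of the class was formed by Ctsh at 6.18-fold, Hexa (the alpha subunit of beta-hexosaminidase) at 5.85, Gla (alpha-galactosidase A) at 5.54 and Ctsa (the protective protein of beta-galactosidase and neuraminidase) at 4.85. Lipa, the acid lipase that hydrolyses cholesteryl esters, had a moderate fold of 4.08 but a peak 18.7 kb wide. Ctsl stood at 3.65-fold. The lowest was Gaa, the acid alpha-glucosidase that degrades glycogen, with 1 peak of 2.51-fold from 33 fragments (22.7 to 46.3) that covered 1.3% of its window. The folds of the enzymes therefore spanned from below to far above 3.82, the median of the protein-coding genes that had an H3K27ac peak.

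Of the 7 other lysosomal genes, 6 carried H3K27ac. Grn, which encodes progranulin, had a single peak of 13.4 kb that reached 6.86-fold from 111 fragments (91.3 to 134) and covered 52.6% of its window. Lamp1, the abundant lysosomal membrane glycoprotein, reached 6.56-fold. Npc2 and Npc1, which pass cholesterol out of the lysosome one after the other, were close at 6.03-fold and 5.98-fold, from 117 (96.8 to 140) and 93 (75.1 to 114) fragments. Psap, the precursor of the saposins that help the enzymes reach lipids, had a peak 18.7 kb wide with a fold of 2.92 and a highest fold of 3.77. Lamp2, the partner of Lamp1 on the X chromosome, had 4 peaks of at most 3.51-fold. Mcoln1, the calcium channel of the lysosomal membrane, had none.

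The 4 proton pump genes all had H3K27ac, at levels that differed among subunits. Atp6v0d2, the isoform of subunit d typical of osteoclasts and macrophages, reached 5.75-fold from 74 fragments (58.1 to 92.9) with a peak 9.15 kb wide over part of its window, 19.7% of which was covered. Its ubiquitous counterpart Atp6v0d1 reached 3.73-fold from 50 fragments (37.1 to 65.9), and 5.2% of its window was covered. Atp6v1h, a subunit of the cytosolic part, reached 3.68-fold. At Atp6v0a2 the single peak, of 2.55-fold, lay 2851 bp outside the gene bounds within the neighbouring gene Tctn2.

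Both transcription factor genes carried H3K27ac. At Tfeb, 8 peaks covered 49.1 kb, 75.2% of the window and the largest share of the 37 genes, with a widest peak of 36.6 kb and a highest fold of 7.26 from 50 fragments (37.1 to 65.9). At Tfe3, on the X chromosome, 2 peaks covered 11.2% of the window and reached 5.55-fold from 61 fragments (46.7 to 78.4).

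Among the 12 autophagy genes, 9 carried H3K27ac and the highest folds ranged from 1.95 to 7.73. Vmp1, an endoplasmic reticulum protein needed for autophagosome formation, had 20 peaks that covered 70.1 kb, the most of any of the 37 genes, with a highest fold of 7.73 from 77 fragments (60.8 to 96.2). Atg7, the activating enzyme of both conjugation pathways, reached 6.45-fold in a peak across the upstream end of the gene bounds (chr6:114642872-114644602). Atg16l1 and Atg5, which act as a complex with Atg12, reached 5.37-fold and 4.88-fold, the latter from 17 fragments (9.9 to 27.2) at a summit 2876 bp past the end of the gene. Ulk1, the kinase that starts autophagy, and Sqstm1, a cargo receptor, were near the median of marked genes at 3.81-fold and 3.69-fold. Atg12 at 2.82-fold, Atg3 (which joins the ubiquitin-like protein to lipid) at 2.35-fold and Optn (another cargo receptor) at 1.95-fold were lower. The Optn peak, from 22 fragments (13.8 to 33.3) where 10.8 were expected, was close to the limit of the list.

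**Figure D3:**
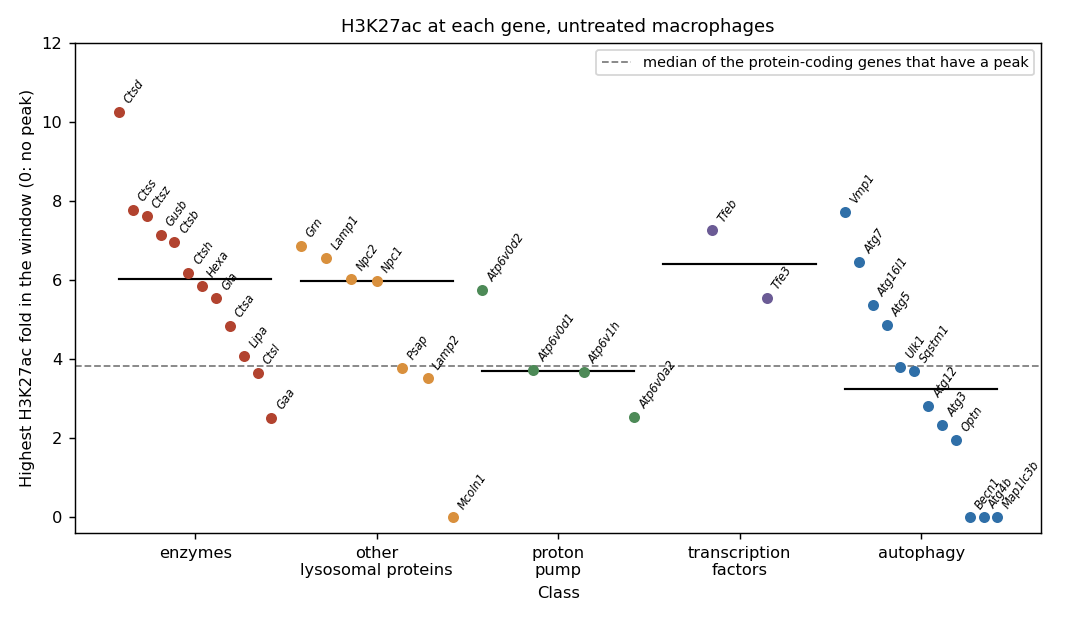
Highest H3K27ac fold in the window of each gene, by class, in untreated wild-type macrophages (1 library; 0 where no peak was called). Black lines mark class medians and the dashed line the median of 3.82 over the protein-coding genes with a peak; 10 of the 12 enzymes and 4 of the 12 autophagy genes lie above the dashed line.

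Set beside each other, the enzymes had a median highest fold of 6.02 and the autophagy genes one of 3.26 with unmarked genes at 0, or 3.81 over the 9 that were marked. The autophagy genes are longer, with a median of 32206 bp against 15767.5 bp, so breadth was compared as a share of the windows. H3K27ac peaks covered 39.4% of the bases in the enzyme windows, 31.1% in those of the other lysosomal proteins, 16.2% in those of the autophagy genes, 5.38% in those of the pump genes and 58.7% in those of the transcription factors, against 4.27% over all protein-coding genes. Single genes carry much of some of these shares: Vmp1 supplied 70.1 of the 121 kb covered at autophagy genes, and Tfeb 49.1 of the 51.7 kb at the transcription factors. The median share per gene was 38.6% for the enzymes and 7.13% for the autophagy genes. A peak of at least 5 kb was present at 7 of 12 enzymes and 2 of 12 autophagy genes (Vmp1 and Atg7), and at 15 of all 37 (40.5%) against 5.46% of protein-coding genes. Classes overlapped: Gaa was below the autophagy median and Vmp1 was above all enzymes but Ctsd and Ctss. Genes are not replicates, so no test was made between the classes.

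**Figure D4:**
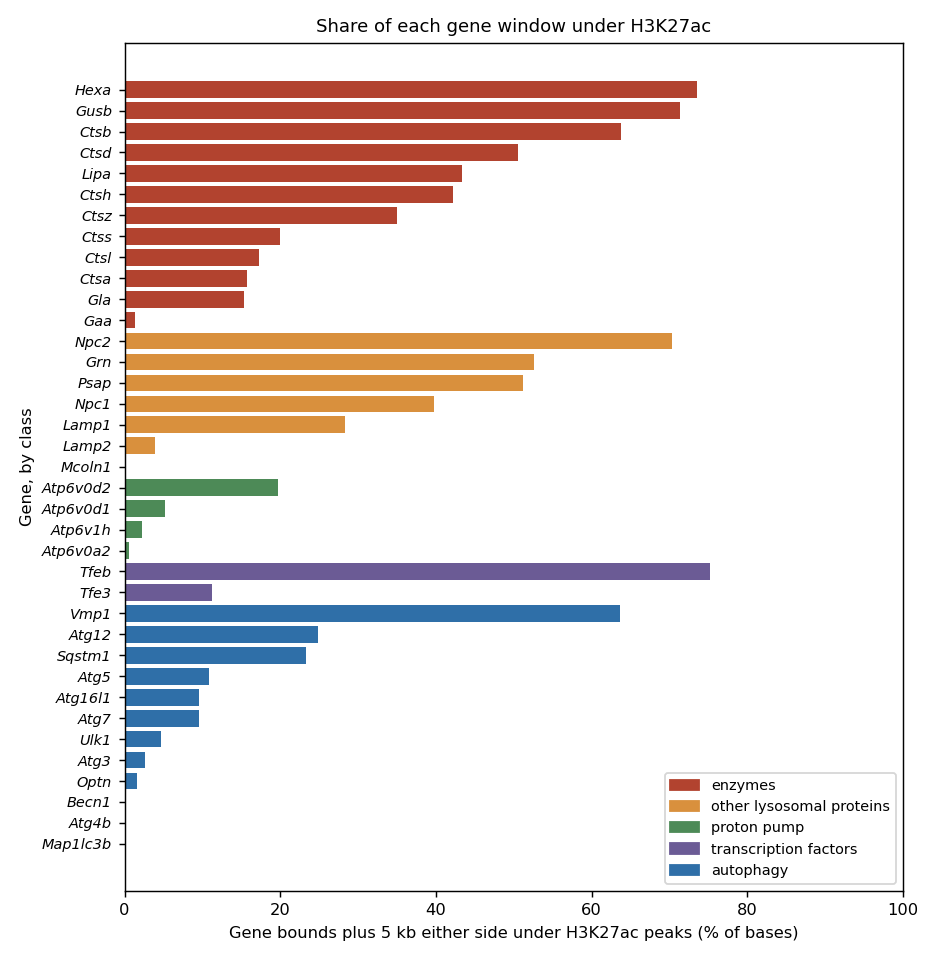
Percentage of each gene's window (gene bounds plus 5 kb either side) that lay under H3K27ac peaks, by class. Tfeb (75.2%), Hexa (73.5%), Gusb (71.4%) and Npc2 (70.3%) lead, and among the autophagy genes only Vmp1 (63.7%) is above 24.8%.

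The position of the mark relative to the start could be read for the 28 genes with listed starts. H3K27ac overlapped a listed promoter at 11 of them (12.2% of 17492 protein-coding genes) and lay within 1 kb of one at 23 (25.9%). By class, it lay within 1 kb at 10 of 10 enzymes and at 5 of 9 autophagy genes. At Ctsd, where the promoter printed above holds 2 CACGTG, the 300-base promoter itself had no peak, and the nearest began 83 bp from the start. The same held at Lamp1, 113 bp from the start, and at Lipa, 88 bp. At Ctsd and Lamp1, H3K27ac also lay upstream of the promoter. Tfeb has 3 listed starts, of which H3K27ac overlapped the promoter of the middle one alone, and of the 2 starts of Tfe3 the second was covered. The single listed start of Atg7 lies 27969 bp inside the gene bounds and 4945 bp from the nearest peak, while the upstream end of the bounds was itself under H3K27ac. At Vmp1 the 3 listed starts lay 428, 6772 and 7085 bp from a peak while the widest domains lay farther inside the gene.

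**Figure D5:**
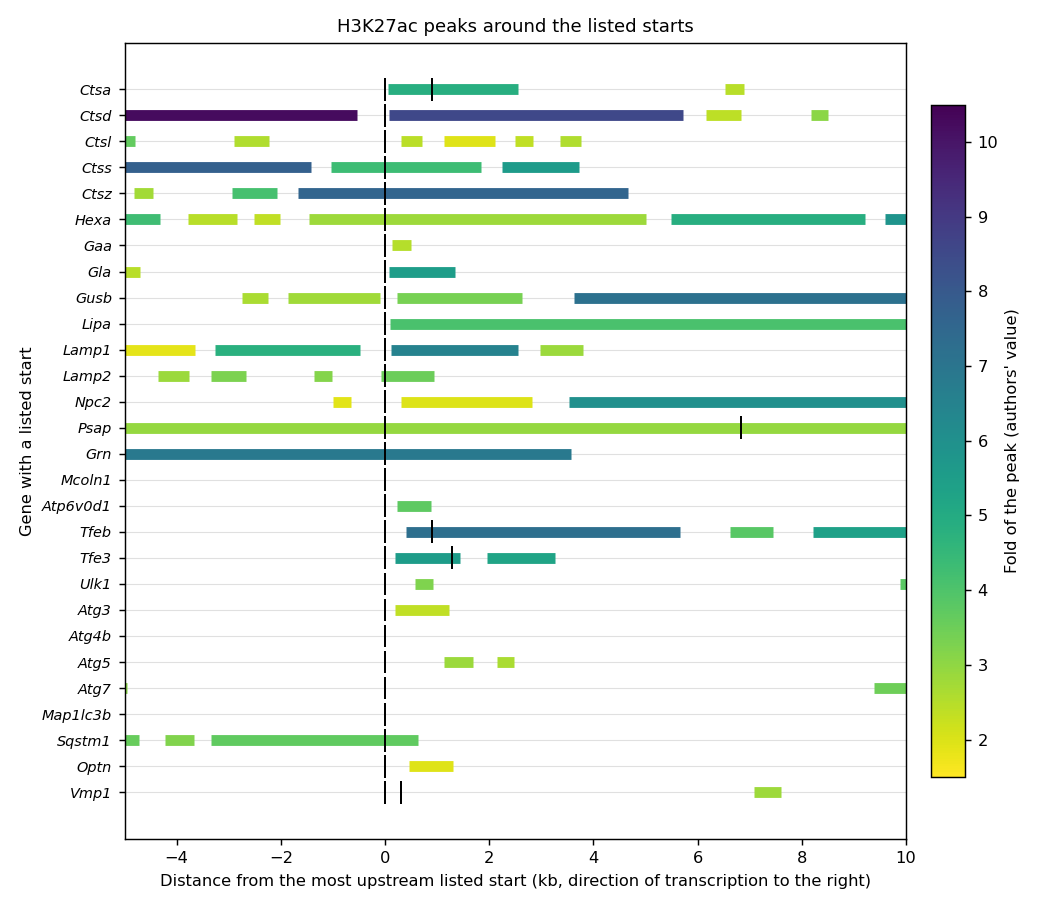
H3K27ac peaks (bars, coloured by the authors' fold) from 5 kb before to 10 kb after the most upstream listed start of 28 genes, with transcription to the right; black ticks are listed starts. Bars begin just after the start at Ctsd, Gla, Lipa, Lamp1 and Gaa, with bars before it as well at Ctsd and Lamp1. The start of Psap lies inside a peak that fills the plotted range. The listed start of Atg7 lies well inside that gene, and the rows of Mcoln1, Atg4b and Map1lc3b are empty.

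Among the 37 genes, 4 had neither H3K27ac nor H3K27me3, which held for 36.6% of protein-coding genes. These were Mcoln1, Becn1 (a subunit of the lipid kinase complex of autophagy), Atg4b (the protease that processes the ubiquitin-like protein) and Map1lc3b (that protein itself, LC3B). The nearest H3K27ac peak was 145829 bp from the start of Mcoln1, 198119 bp from that of Map1lc3b and 47728 bp from that of Atg4b. The promoter of Mcoln1 nevertheless holds 2 CACGTG, 1 of them within TCACGTGA. An unmarked gene here is one without a called peak at the depth of this library.

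H3K27me3 was called at 7 genes, all of which also had H3K27ac in the window, a combination found at 9.84% of protein-coding genes. Inside the gene bounds it was present at 3 genes (28.5% of protein-coding genes): Lamp2, Gla and Optn. Lamp2 had 3 such peaks, of 3.33-fold to 3.46-fold from 14 to 17 fragments, and 1 in the flank. Gla had 1 of 3.36-fold (14 fragments, 7.65 to 23.5), and Optn 1 of 2.87-fold plus one of 4.20-fold in the flank. At Grn (4.03-fold, within Fam171a2), Atp6v0a2 (3.71-fold, within Dnah10), Atg7 (3.54-fold, in the flank) and Atg12 (4.75-fold, within Cdo1) the peaks lay outside the gene bounds. No H3K27me3 peak at these genes overlapped an H3K27ac peak. The highest fold at any of the 7, 4.75, was below the median of 5.19 over protein-coding genes with an H3K27me3 peak. H3K27me3 covered 0.637% of the windows and H3K27ac 23.2%.

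The EZH2 calls of the 2 conditions shared 0 of the 37 genes, against 1528 of 21887 protein-coding genes with EZH2 in both. Over protein-coding genes, 25.2% of the untreated peaks overlapped a nigericin peak and 45.2% of the nigericin peaks an untreated one. With only 1 and 5 of the 37 genes called, an overlap of 0 says little about these genes. In untreated cells only Atg4b had a peak (chr1:93784298-93784642, 2.42-fold, 9 fragments, 4.12 to 17.1), and this gene had none after LPS and nigericin. With both EZH2 lists at the shorter length, 0 of the 37 genes had EZH2 in untreated cells and the same number, 5, had it after LPS and nigericin. After LPS and nigericin 5 other genes had 1 peak each, none of which had one in untreated cells. Ctsb had a peak of 2.99-fold from 9 fragments (chr14:63131748-63132189), Npc1 one of 2.74-fold from 10 (chr18:12220841-12221177), Npc2 one of 2.68-fold from 8 (chr12:84767270-84767630) and Atp6v0d1 one of 3.27-fold from 10 (chr8:105550029-105550379). These 4 lay inside the gene bounds and over H3K27ac peaks of untreated cells. A nigericin EZH2 peak over H3K27ac was found in the windows of 0.553% of protein-coding genes. That share does not allow for the breadth of the mark at these genes. H3K27ac covered 63.8% of the window at Ctsb, 39.7% at Npc1, 70.3% at Npc2 and 5.2% at Atp6v0d1. The H3K27ac folds under these 4 EZH2 peaks were 6.96 at Ctsb, 5.98 at Npc1, 6.03 at Npc2 and 3.36 at Atp6v0d1. The fifth, at Atg12 (2.99-fold, 10 fragments), lay in the flank within Cdo1 and over H3K27me3.

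Across protein-coding genes, 3.6% had EZH2 in the nigericin list alone and 9.73% in the untreated list alone. None of the 6 EZH2 peaks at these genes had a q of at most 0.05, and each rested on 8 to 10 fragments, so the presence or absence of a peak lies near the limit of the lists. By that threshold 0 of the 37 genes had EZH2 in either list, against 5.68% of protein-coding genes untreated and 2.35% after nigericin. Over all peaks, 4.13% of the nigericin EZH2 peaks and 2.17% of the untreated ones overlapped H3K27ac. These shares refer to the whole genome, while H3K27ac covered 23.2% of the bases in the windows of the 37 genes.

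p53 was called at Lamp1 and Vmp1. Lamp1 had 1 peak of 3.01-fold from 8 fragments (3.45 to 15.8), inside the gene and away from H3K27ac (chr8:13164271-13164588). Vmp1 had 3 peaks, of 3.40-fold, 3.06-fold and 3.06-fold from 9, 8 and 8 fragments, all within H3K27ac peaks. Across the genome, 2.03% of all p53 peaks overlapped H3K27ac, while H3K27ac covered 63.7% of the window of Vmp1. None of the 4 had a q of at most 0.05, a threshold passed at 0.105% of protein-coding genes. The highest of them (chr11:86584307-86584641) lay 149 bp from the hairpin of miR-21a (chr11:86584067-86584158, minus strand), a microRNA gene within the bounds of Vmp1, and the hairpin itself lay inside an H3K27ac peak of 4.75-fold. A SIRT1 peak of p53 wild type cells (chr11:86583989-86584203, 2.81-fold, 4 fragments) covered the hairpin. The mature 5p strand is printed because the p53 peak lay beside its gene. Capitals mark the seed, bases 2 to 8, and the letters are from RefSeq on GRCm38.p6.
mmu-miR-21a-5p: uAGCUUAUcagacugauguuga

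SIRT1 peaks were frequent at these genes and weak. In all 4 lists together they formed 349 separate sites in the windows, of which 329 were called in 1 list, 19 in 2, 1 in 3 and 0 in all 4. The same count was not made over all protein-coding genes. Between the lists compared in pairs below, 2.33% to 8.41% of the SIRT1 peaks at protein-coding genes overlapped. Each SIRT1 peak at the 37 genes rested on 3 to 8 fragments at its summit. Only 3 peaks had a q of at most 0.05: 1 at Tfeb (4.95-fold) and 1 at Atp6v0a2 (4.95-fold) in Ezh2 wild type cells, and 1 at Atp6v0d1 (4.85-fold) in Ezh2 knockout cells, each from 8 fragments (3.45 to 15.8). The background for that threshold was 0.658% of protein-coding genes in Ezh2 wild type and 1.59% in Ezh2 knockout, and in the p53 pair, where 0 of the 37 genes passed it, 0.535% and 1.02%. At the level of genes, 18 of 37 had a peak in all 4 lists (26.5% of protein-coding genes) and 2, Gla and Lamp2, in none (15%).

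Peaks were counted gene by gene. Atg7, the longest of the genes, had 12 and 5 peaks in wild-type and knockout cells of the Ezh2 pair, and 13 and 16 in those of the p53 pair. Vmp1 had 8, 2, 9 and 8 in the same order, Tfeb 7, 1, 6 and 11, and Atg5 9, 5, 3 and 9. Among the shorter enzyme genes, Ctsd had 4, 2, 4 and 2, Ctsb 1, 1, 3 and 1, and Ctsz 2, 1, 2 and 2. Ctsh had 7, 1, 0 and 2. Becn1 had 5 peaks in p53 wild type cells and none in the other 3 lists, and Mcoln1 had 4 in p53 knockout cells and none in the others. Per length, the windows of the 37 genes held 70.4, 21.4, 53.1 and 68.7 peaks per Mb in that order of lists, against 39.9, 11.1, 32.1 and 34 over all protein-coding genes. The enzyme windows held 88.1, 32.3, 41.1 and 49.9 peaks per Mb, and those of the autophagy genes 72.4, 24.1, 61.7 and 71.

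For Ezh2, 21 genes had SIRT1 in both genotypes (33.4% of protein-coding genes), 9 in wild type alone (35.7%), among them Psap with 6 peaks and Atg16l1 and Atp6v1h with 5 each, and 1, Ctss, in the knockout alone (4.83%). The knockout list was shorter, with 18170 against 74767 peaks, and with both lists at the shorter length 14 genes had SIRT1 in both, 7 in wild type alone and 8 in the knockout alone. Of the 122 wild-type peaks at these genes 3 overlapped a knockout peak (2.46%), and of the 37 knockout peaks 3 overlapped a wild-type peak (8.11%); over all protein-coding genes these shares were 2.33% and 8.41%. For p53, 27 genes had SIRT1 in both genotypes (51.6% of protein-coding genes). Becn1 and Ctsl, 2 genes, had it in wild type alone (12.5%), and Ctsa, Ctsh, Ctss, Gaa, Mcoln1 and Atg3, 6 genes, in the knockout alone (13.5%). Here 3 of 92 wild-type peaks (3.26%) and 3 of 119 knockout peaks (2.52%) overlapped, against 6.08% and 5.74%. The 2 wild-type lists shared 7 of 122 and 7 of 92 peaks, which is 5.74% and 7.61% against 4.99% and 6.2% over all protein-coding genes.

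The sites called more than once included some at gene starts and others, as in Atg5 and Psap, away from a listed start. The share at starts was not counted. The 1 site in 3 lists lay within Gusb (chr5:130000759-130001268), with 3.24-fold in Ezh2 knockout, 2.90-fold in p53 wild type and 2.21-fold in p53 knockout cells, from 5, 4 and 3 fragments. A site at the start of Ctsd (chr7:142387720-142388141) was called in Ezh2 knockout and p53 wild type cells, at 3.24-fold and 2.90-fold. One at the middle start of Tfeb (chr17:47737580-47738463) was called in Ezh2 wild type and p53 knockout cells, at 2.75-fold and 2.56-fold. One at the start of Ctsl (chr13:64369916-64370532) was called in Ezh2 wild type and Ezh2 knockout cells, at 3.43-fold and 3.78-fold. SIRT1 peaks at these genes overlapped H3K27ac in 39.3% (95% Wilson interval 31.1 to 48.2), 45.9% (31 to 61.6), 47.8% (37.9 to 57.9) and 35.3% (27.3 to 44.2) of cases, in the order of lists given above. Over all peaks of the lists the shares were 9.97%, 15.5%, 12.3% and 13.3%. Those shares refer to the whole genome, while the windows of these genes had 23.2% of their bases under H3K27ac. The Wilson intervals count each peak as independent. Peaks of 1 gene share its cover (75.2% of the window at Tfeb, 63.7% at Vmp1), so the intervals may be too narrow and are not a test.

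Other genes of the same pathways were read from a wider list. Of 46 further lysosomal genes, 38 had H3K27ac, with a median highest fold of 3.82 with unmarked genes at 0. Of 30 further autophagy genes 18 had it, with a median of 2.7. The mark was called at 37.3% of all protein-coding genes. Mitf, the relative of TFEB, reached 8.1-fold with 16 peaks. Lysosomal genes without the mark included Lamp3, Arsa, Smpd1, Sgsh, Ctsf, Slc38a9 and Rragd. H3K27me3 was called at 9 of the 46 and 7 of the 30, against 35.9% of protein-coding genes. Its highest fold among the lysosomal genes was 10.79 beside Cd63, a tetraspanin of late endosomes, followed by Rragd (6.29), a GTPase of the nutrient-sensing pathway, Ctsf (6.18), Sgsh (5.71), Ids (3.95), Flcn (3.86), Atp6v0b (3.21), Atp6ap1 (3.21) and Idua (2.91). Among the autophagy genes it was highest at Atg4a (5.68), Ambra1 (5.63), Calcoco1 (4.20), Rubcn (4.10), Wipi2 (3.75), Stx17 (3.03) and Tecpr1 (2.72). Of these, only Atg4a had H3K27me3 inside its bounds; at the others every peak lay in the flank, within Chrm4 at Ambra1 and within Bhlha15 at Tecpr1. Among the lysosomal genes the peaks of Flcn and Atp6v0b lay only in the flank.

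EZH2 was called at 3 of the 46 in untreated cells (Cd63, Arsb and Rragd) and at 4 after LPS and nigericin (the same 3 genes and Atp6v1a). Of the 30, it was called at 1 and 2 (Ambra1 in both, Gabarapl1 after nigericin). Over protein-coding genes the shares were 16.7% untreated and 10.6% after nigericin. The higher of 2 peaks beside Cd63 after nigericin (chr10:128892310-128893185) reached 3.89-fold from 12 fragments. It was the only EZH2 peak of the wider list with a q of at most 0.05, and lay over H3K27me3. The other nigericin peak had 3.29-fold from 10 fragments. The untreated peak at Cd63, at another position of the window, had 2.34-fold from 10 fragments. Both of these also overlapped H3K27me3. p53 was called at 3 of the 46 (Mitf, Idua and Atp6v1b2) and at 0 of the 30 autophagy genes, against 6.45% of protein-coding genes.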

How the data were processed

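ChIP-seq was carried out on 9 immunoprecipitated libraries of mouse macrophages, 1 per group; the 7 input libraries were used only through the authors' peak calls. The authors deposited 1 peak list per library in narrowPeak layout, and MACS2, deepTools and the builds GRCm38 and mm10 are named in the submitters' processing notes. The deposited peak names refer to alignments with duplicates marked. The aligner, the versions and filters, and which input served each list, were not stated in the labels. The deposited fold (a ratio of fragments to local background with 1 added to each), −log10 p and −log10 q were used as given. The deposited score repeats −log10 q (histone lists) or −log10 p (other lists), multiplied by 10, and was not used. Histone lists end at q 0.05 and the others at p 0.01.

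Gene bounds came from the RefSeq table on GRCm38.p6 (21887 protein-coding genes on chromosomes 1 to 19, X and Y). Fragments at each summit were recovered from fold and p; for 100% of the 560 peaks at these genes a whole number matched within 0.001 of −log10 p, and exact Poisson 95% intervals were added. Library totals were not used, so a missing peak says only that none was called. Overlap counts were tested on simulated peaks. Peaks were counted in Python 3.11.15 (numpy 2.4.6, pandas 2.3.3, scipy 1.17.1). Detail was given for genes with EZH2, p53 or H3K27me3, those without H3K27ac, those with SIRT1 in 3 or 4 lists and the 3 highest and the lowest H3K27ac fold of each class; of the wider list, genes with an EZH2, p53 or H3K27me3 peak of q at most 0.05. The genes, lists and motifs were chosen with earlier results of these data known. Other thresholds, windows, overlaps and list lengths were tried. Single values of some genes of the marker and wider lists are not reported here.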

Additional observations from a re-analysis of the deposited data

How the results depend on the processing

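No paired analysis was possible because each group has 1 library. Of 152 comparisons of a count with its value under another setting, 86 stayed within 1.5 times and 66 did not, the H3K27ac count over all 37 genes staying within it under every setting run. With q at most 0.05, counts fell to 0 for both EZH2 lists, p53 and both p53-set SIRT1 lists, to 2 for SIRT1 in Ezh2 wild type and 1 in Ezh2 knockout; the enzymes and the autophagy genes each had 0 in every EZH2, p53 and SIRT1 list that had held any, the counts of genes in both lists of a pair were 0, and the genes in 1 list alone were 0 except 2 for Ezh2 wild type and 1 for Ezh2 knockout. With −log10 q of at least 5, H3K27me3 was called at 3 genes, every EZH2, p53 and SIRT1 list at 0, both marks at 2, H3K27me3 alone at 1 and neither at 7. Within 1 kb of the gene ends, counts were 0 for both EZH2 lists, 1 for p53, 1 for H3K27me3 and 15, 7, 12 and 12 for SIRT1. There the enzymes had 0 for nigericin EZH2 and H3K27me3 and 5, 2, 2 and 0 for SIRT1, and the autophagy genes 0 for both EZH2 lists and H3K27me3, and 6 and 4 for SIRT1 in p53 wild type and knockout. With 10 kb either side, EZH2 was called at 8 genes after nigericin, 2 untreated and 1 in both, and H3K27me3 at 13. With gene bounds alone, H3K27me3 and both marks were at 3 genes, SIRT1 in Ezh2 knockout alone at 4 and in p53 wild type alone at 5. With lists of equal length, untreated EZH2 alone was at 0 genes and SIRT1 in Ezh2 knockout alone at 8 instead of 1. The settings that needed 50% of a peak inside the window, or its summit there (the latter chosen after seeing the data), moved no count by over 1.5 times, and 0 regions had a peak in all 9 lists. Of the 37 highest H3K27ac folds, 32 were unchanged with 10 kb either side, with Lamp2 at 5.26, Psap at 9.19, Atg3 at 3.75, Ctsl at 4.89 and Atg5 at 5.59. With gene bounds alone 32 were unchanged too, with Ctss at 5.6, Atp6v0a2 at 0, Ctsd at 8.56, Ctsl at 2.57 and Atg5 at 4.38. All 18 values of the median fold (over all genes and each class) under other windows moved by less than the spread (1 SD) between the genes. Most single folds were unchanged under these windows, so staying within that bound is a weak check. At the 37 genes, EZH2, p53 and SIRT1 peaks rest on 3 to 10 fragments, which limits every count of them.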
